A study of Homo sapiens with 14 samples.

Results

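Hypoxia-inducible factors (HIFs) are the transcription factors through which cells respond to a shortage of oxygen. Here 35 genes of this pathway are described in CHP-134 cells: the HIF subunits, the enzymes and ubiquitin ligase subunit that make them sensitive to oxygen, and genes outside glycolysis that HIFs are known to induce. The genes were taken by symbol, without a cut on any measured value, but they were chosen with earlier results of these data known. Each of the 35 symbols had 1 identifier in both count tables, which hold 17810 genes for the first experiment and 19143 for the second. ERO1L and FAM162A are written as in the tables, and ERO1L is now also called ERO1A.

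The cell line CHP-134, established from a human neuroblastoma, carries an amplified gene for N-MYC. In the first experiment, CHP-134 lines that carried a Tet-On lentiviral vector were induced to express either enhanced green fluorescent protein (EGFP, the control) or OmoMYC, a mutated piece of MYC holding its dimerization domain, which takes up partners of MYC proteins. Both lines received 1 µg/ml doxycycline for 3 days in serum approved for tetracycline work, and 3 libraries were made from each. The lines were engineered separately, so a difference between the lines and an effect of OmoMYC cannot be told apart. In the second experiment, parental CHP-134 cells, which carry no degradation tag, were treated for 18 h with 500 nM dTAG47 or with the matched dimethyl sulfoxide (DMSO) control, with 4 libraries each. dTAG47 is a small molecule that brings the ubiquitin ligase subunit cereblon to proteins fused to a mutant FKBP12 tag, and this experiment controls for effects of the compound without a tagged protein. No group was labelled as grown at low oxygen. The methods describe the replicates of both experiments as biological, and p-values measure the spread between these libraries.

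When oxygen is present, prolyl hydroxylases of the EGLN family modify the HIF alpha subunits HIF1A and EPAS1, VHL binds the modified protein, and the subunit is degraded. HIF1AN, an asparagine hydroxylase, blocks the contact of the alpha subunits with their coactivators. When oxygen falls, an alpha subunit pairs with ARNT and binds hypoxia response elements, whose core is ACGTG or GCGTG, near genes for blood vessel growth, mitophagy, collagen maturation and pH control. EPAS1 (HIF-2 alpha) is known for its role in cells of the sympathetic lineage from which neuroblastoma arises. MYC proteins with their partner MAX bind the E-box CACGTG, which holds ACGTG on both strands. Most oxygen control of the alpha subunits acts on the protein, which RNA-seq does not measure.

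Promoter windows, from 250 bases before to 50 after a transcription start, were taken from RefSeq (GRCh38.p14) and searched on both strands for these motifs. Windows were matched for 27 of the 35 genes, and VHL, VEGFA, STC1, BNIP3L, HILPDA, JMJD6, ZNF395 and NDRG1 were not matched. At least 1 window held ACGTG in 15 of the 27 genes, GCGTG in 14, either of these in 22, and CACGTG in 6. Over windows, 53.1% of 32 held ACGTG, 50% GCGTG, 78.1% either and 18.8% CACGTG. Among all 35116 windows of the same length the shares were 21.4%, 36.5%, 48.4% and 7.26%. Windows of 5 genes are printed, with matches on either strand in capitals, because their genes carry the results below: 4 of the genes that were lower with OmoMYC and had higher values in every dTAG47 library (BNIP3, FAM162A, P4HA1 and DDIT4), and EPAS1, which changed most. These 5 were chosen after their values were seen.
BNIP3 (chr10:131981874-131982173, minus strand): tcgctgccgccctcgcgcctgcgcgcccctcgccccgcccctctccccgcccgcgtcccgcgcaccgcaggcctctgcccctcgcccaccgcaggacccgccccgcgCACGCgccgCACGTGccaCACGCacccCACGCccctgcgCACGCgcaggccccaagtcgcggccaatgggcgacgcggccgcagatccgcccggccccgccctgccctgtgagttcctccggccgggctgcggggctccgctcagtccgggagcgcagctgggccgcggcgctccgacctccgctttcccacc
FAM162A (chr3:122383932-122384231, plus strand): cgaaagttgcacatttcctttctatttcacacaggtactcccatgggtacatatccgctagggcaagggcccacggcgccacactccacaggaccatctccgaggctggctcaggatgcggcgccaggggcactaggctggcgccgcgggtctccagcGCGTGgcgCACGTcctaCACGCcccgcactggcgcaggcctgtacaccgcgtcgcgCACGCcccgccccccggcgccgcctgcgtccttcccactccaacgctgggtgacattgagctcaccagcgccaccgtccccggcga
P4HA1 (chr10:73096817-73097116, minus strand): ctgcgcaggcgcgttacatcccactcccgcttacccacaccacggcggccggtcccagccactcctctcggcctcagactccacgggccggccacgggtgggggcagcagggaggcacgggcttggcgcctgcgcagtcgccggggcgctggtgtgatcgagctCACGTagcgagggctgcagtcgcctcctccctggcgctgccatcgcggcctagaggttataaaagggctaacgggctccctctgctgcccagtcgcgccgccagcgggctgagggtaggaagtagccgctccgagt
DDIT4 (chr10:72273674-72273973, plus strand): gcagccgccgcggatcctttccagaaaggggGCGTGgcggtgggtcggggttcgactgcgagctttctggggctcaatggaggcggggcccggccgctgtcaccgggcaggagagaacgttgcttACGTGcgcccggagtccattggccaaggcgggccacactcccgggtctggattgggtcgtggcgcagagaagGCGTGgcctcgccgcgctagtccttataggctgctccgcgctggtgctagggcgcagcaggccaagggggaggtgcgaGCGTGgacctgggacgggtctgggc
EPAS1 (chr2:46297157-46297456, plus strand): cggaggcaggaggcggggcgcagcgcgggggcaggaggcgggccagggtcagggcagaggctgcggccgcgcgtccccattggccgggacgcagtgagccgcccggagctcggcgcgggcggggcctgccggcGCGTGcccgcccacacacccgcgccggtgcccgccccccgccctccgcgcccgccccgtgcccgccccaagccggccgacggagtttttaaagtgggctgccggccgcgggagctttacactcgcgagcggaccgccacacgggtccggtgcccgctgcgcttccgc
The BNIP3 window held 6 matches to the hypoxia response element core, 2 of them the ACGTG on each strand of its 1 CACGTG. FAM162A and DDIT4 held 4 each (1 ACGTG and 3 GCGTG), whereas P4HA1 held 1 ACGTG and EPAS1 1 GCGTG. Windows of EGLN2, KDM4B, BHLHE40, ANKRD37 and WSB1, which are not printed, also held a CACGTG. A match describes the letters in the window and does not show that a factor binds there.

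The 14 libraries held 28060817 to 53451641 counts. OmoMYC is derived from MYC, and counts at MYC were 0.568 to 0.689 CPM (reads scaled to a common library total and composition) in EGFP libraries and 512.8 to 526.6 CPM in OmoMYC libraries, which fits the label of the OmoMYC libraries, and EGFP itself was not counted. The summed level of 10 markers of adrenergic neuroblastoma was 4420 to 5322 CPM over all libraries. Markers of fibroblast-like cells summed to 77.1 to 140.3 CPM, those of Schwann or glial cells to 9.79 to 22.9 CPM, and those of endothelial cells to at most 1.06 CPM. Some of these moved with the groups. The Schwann or glial markers summed to 18.3 to 19.4 CPM with DMSO and 21.1 to 22.9 CPM with dTAG47 (1 of 3 tested called higher), and to 13.8 to 15.2 CPM with EGFP and 9.79 to 12.0 CPM with OmoMYC (1 of 3 called lower). The neuroblastoma markers summed to 4555 to 5069 CPM with EGFP and 4420 to 4541 CPM with OmoMYC (4 of 10 called higher and 1 lower), and the fibroblast markers to 116.0 to 138.7 CPM and 124.7 to 140.3 CPM (3 of 6 tested called higher and 2 lower). The part of these markers in the results below was not tested. Replicates were compared by chi-square per degree of freedom, which is about 1 where libraries differ by counting error alone. The library of dTAG47 replicate 2 stood furthest apart in its group, at 8.43 to 23.4 from the others, and results that rest on it are given with and without it. The value was 2.67 for DMSO replicates 1 and 2, 3.21 for 3 and 4, and 8.97 to 11.6 across these pairs. With dTAG47 it was 8.43 for replicates 1 and 2, 2.70 for 3 and 4, and 5.84 to 23.4 across these pairs. EGFP replicate 1 also stood apart, at 21.7 and 43.5 from EGFP replicates 2 and 3, which stood at 8.15 from each other. In bulk RNA, fewer cells that express a gene and less RNA per cell cannot be told apart.

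HIF1A was the most abundant of the 35 genes in CHP-134 cells, and EPAS1 was near the bottom. Per kilobase of transcript, which allows levels to be compared between genes, HIF1A was at 71.6 ± 4.84 CPM per kb with EGFP (SD, n = 3) and 64.2 ± 1.88 with DMSO (SD, n = 4). JMJD6, a hydroxylase, and LOX, an enzyme that crosslinks collagen, followed it with EGFP, at 39.5 ± 2.84 and 38.3 ± 2.68 CPM per kb, which do not differ beyond their spread. EPAS1 was at 0.0633 ± 0.00366 CPM per kb with EGFP and 0.0285 ± 0.0164 with DMSO, the lowest of the 35 in both. CA9, a carbonic anhydrase often used as a marker of hypoxia, was at 0.163 ± 0.0731 with EGFP and 0.0743 ± 0.0193 with DMSO, and the vasodilator peptide gene ADM at 0.158 ± 0.0384 and 0.307 ± 0.0492. CA9, ADM and the nuclear receptor gene RORA (0.143 ± 0.0232 with EGFP) do not differ beyond their spread in EGFP cells. ARNT, a partner of both alpha subunits, was at 15.1 ± 0.533 CPM per kb with EGFP and 10.8 ± 0.193 with DMSO, between HIF1A and EPAS1. ARNT2, a HIF component outside the 35 genes, was at 16.4 ± 1.34 CPM per kb with EGFP.

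**Figure D1:**
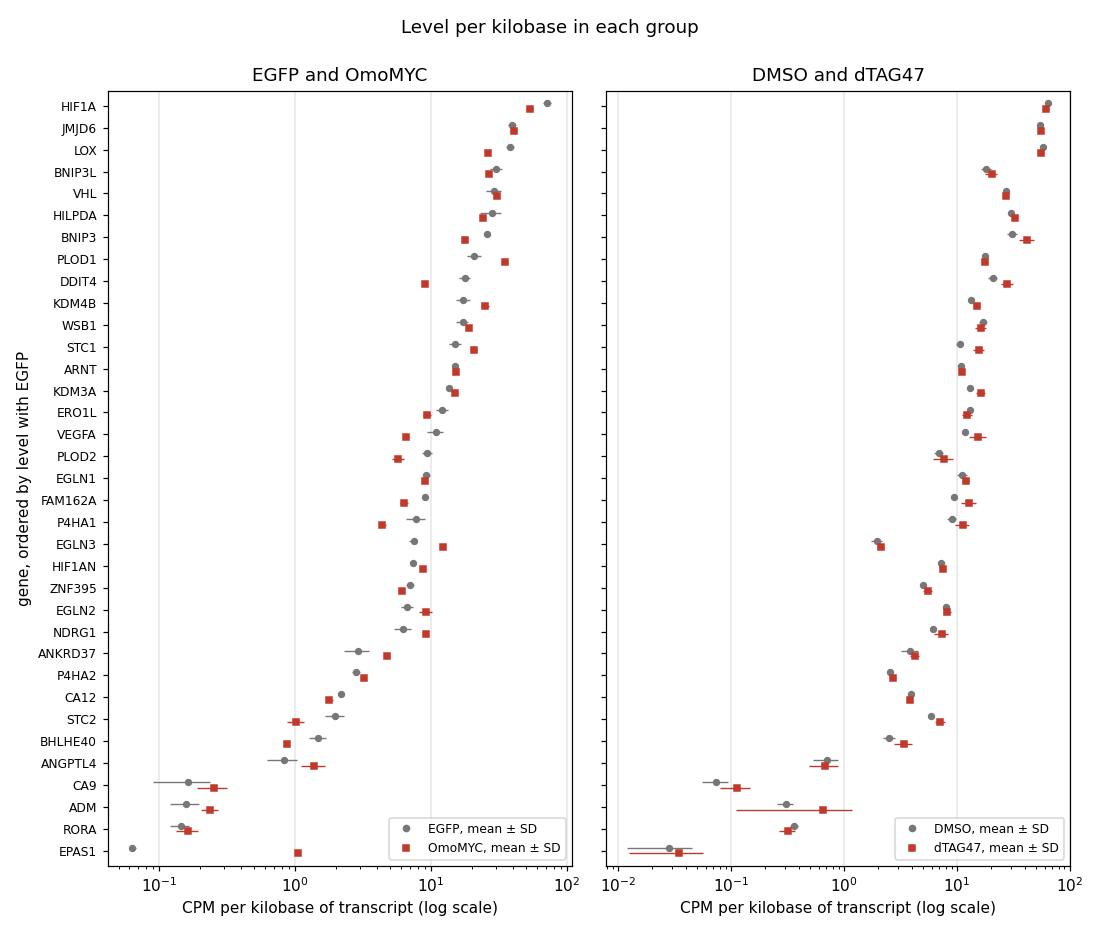
Level of each of the 35 genes in CPM per kilobase of transcript (log axis, mean ± SD) for EGFP and OmoMYC (n = 3 each) and for DMSO and dTAG47 (n = 4 each), ordered by the level with EGFP. HIF1A stands highest in EGFP cells at 71.6 and EPAS1 lowest at 0.0633, and EPAS1 with OmoMYC stands at 1.06.

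The first comparison asked which genes N-MYC controls, by setting OmoMYC against EGFP. EPAS1 rose about 16.5-fold with OmoMYC, HIF1A fell, and the targets split: the mitochondrial genes BNIP3 and FAM162A, the collagen enzymes P4HA1, PLOD2 and LOX, and VEGFA, STC2, BHLHE40 and DDIT4 fell, whereas EGLN3, PLOD1, KDM4B, NDRG1, ANKRD37, ANGPTL4 and STC1 rose. Of the 34 genes that passed the filter on low counts, 10 were called higher (29.4%, against 27.3% of all 13803 genes tested) and 12 lower (35.3%, against 25.7% of all genes), at an FDR below 0.05 by edgeR's quasi-likelihood test. The remaining 12 were not called, and ADM was not tested. The share called higher was near that of all genes, and neither share was tested against it. Their median log2 fold change was 0.03, and that of all genes was 0.01. No OmoMYC value lay within the range of the EGFP values for 25 of the 34 genes (73.5%, against 62.3% of all genes).

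**Figure D2:**
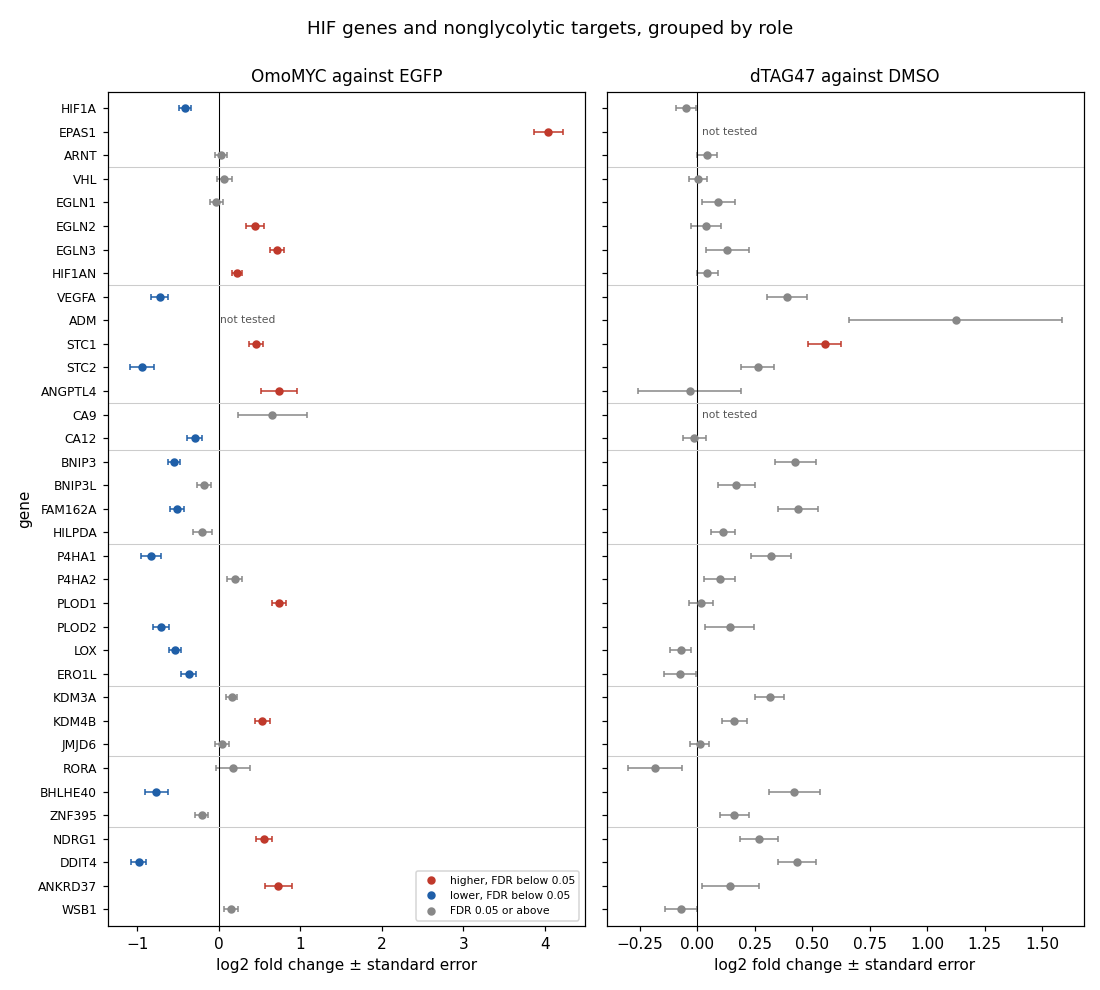
Log2 fold change with its standard error for each gene, grouped by role, in OmoMYC against EGFP (3 libraries each) and dTAG47 against DMSO (4 libraries each), with different horizontal scales. With OmoMYC 10 genes are higher and 12 lower at an FDR below 0.05, EPAS1 standing apart at 4.04, whereas with dTAG47 1 gene is called (STC1, 0.55) and 26 of the 33 values lie above 0.

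Among the HIF subunits, EPAS1 (ENSG00000116016.9, chromosome 2 of hg19 from 46524546 to 46613836) was counted at 0.347, 0.322 and 0.310 CPM in the EGFP libraries and at 5.28, 5.50 and 5.56 CPM in the OmoMYC libraries. The groups are far apart, and the EGFP values rest on 9 to 11 reads per library against 155 to 212 with OmoMYC. On the log2 scale EPAS1 rose by 4.04 (SE 0.18, adjusted p = 6.09e-08), and it was called in all 13 alternative analyses that gave it a value. The level of EPAS1 with OmoMYC (1.06 ± 0.0278 CPM per kb) was still far below that of HIF1A (53.5 ± 3.08). Endothelial cells express EPAS1 strongly, and the 4 endothelial markers summed to 0.207 to 0.394 CPM with EGFP and 0.804 to 1.06 CPM with OmoMYC. Of these markers PECAM1 and VWF had at most 3 reads in every library, CDH5 was not called (adjusted p = 0.753), and TIE1 was called higher, from 0 to 1 reads with EGFP to 14 to 24 with OmoMYC. KDR, the main VEGFA receptor of endothelial cells, which was in the list of hypoxia-induced genes and not among these markers, rose from 0 to 3 reads to 35 to 53 (adjusted p = 0.000106). Their part in the EPAS1 result was not tested. HIF1A (ENSG00000100644.12, chromosome 14 from 62162231 to 62214976) was counted at 303.5, 277.1 and 266.4 CPM with EGFP and at 214.3, 221.3 and 197.7 CPM with OmoMYC, without overlap. It fell by 0.42 on the log2 scale (standard error 0.07, adjusted p = 0.000915). ARNT was counted at 73.3, 68.3 and 71.5 CPM with EGFP and 70.7, 74.1 and 72.5 CPM with OmoMYC, and was not called (log2 fold change 0.03, standard error 0.07, adjusted p = 0.745). HIF1A and EPAS1 thus moved in opposite directions, and no change of ARNT was detectable. ARNT2 and HIF3A, HIF components outside the 35 genes, were both called higher by the same test. ARNT2 went from 106.9 ± 8.76 to 141.4 ± 4.69 CPM (log2 fold change 0.40, adjusted p = 0.00139). HIF3A was low and went from 1.64 ± 0.0884 to 2.29 ± 0.464 CPM (0.50, adjusted p = 0.0464).

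Of the genes that make HIF sensitive to oxygen, 3 of 5 were called higher (27.3% of all genes) and 0 lower (25.7% of all genes), by the test above. EGLN3, a prolyl hydroxylase that HIF itself induces, was counted at 19.6, 19.1 and 21.7 CPM with EGFP and 34.2, 33.4 and 31.3 CPM with OmoMYC. EGLN2, a second prolyl hydroxylase, was counted at 14.2, 12.6 and 15.4 CPM and at 18.6, 17.5 and 21.5 CPM. HIF1AN was counted at 95.7, 95.9 and 96.1 CPM and at 110.8, 114.3 and 111.3 CPM. The groups overlapped for none of these 3 genes, and their log2 fold changes were 0.71 (standard error 0.08, adjusted p = 8.18e-05), 0.45 (0.11, 0.00641) and 0.23 (0.06, 0.0118). The call of HIF1AN was lost without EGFP replicate 2 (adjusted p = 0.0779) and also without the second or the third OmoMYC library (0.107 and 0.0669). EGLN2 shares 2012 of its 2100 exonic bases with a readthrough transcript of RAB4B and EGLN2 on the same strand. How reads shared by the 2 were counted is not given in the sources used here. EGLN1, the main prolyl hydroxylase in most cells, was counted at 42.7, 39.9 and 37.9 CPM with EGFP and 40.5, 38.7 and 38.8 CPM with OmoMYC. VHL was counted at 109.1, 138.7 and 137.0 CPM and at 134.0, 132.2 and 137.3 CPM. Both overlapped between the groups and were not called (log2 fold changes -0.03 and 0.07, adjusted p = 0.758 and 0.552).

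The 4 tested genes of secreted factors were all called, 2 in each direction, where 27.3% of all genes were called higher and 25.7% lower. VEGFA (ENSG00000112715.16, chromosome 6 from 43737948 to 43754224), the main growth factor for blood vessels, was counted at 33.02, 40.1 and 43.9 CPM with EGFP and at 22.4, 24.6 and 23.7 CPM with OmoMYC. STC2, a stanniocalcin, was counted at 6.81, 9.27 and 8.95 CPM and at 4.94, 4.36 and 3.72 CPM. Both fell without overlap, by 0.72 (standard error 0.11, adjusted p = 0.000317) and 0.94 (0.15, 0.000584) on the log2 scale. STC1, the other stanniocalcin, went the opposite way, from 51.9, 60.0 and 63.4 CPM to 81.8, 82.7 and 75.8 CPM (log2 fold change 0.46, standard error 0.09, adjusted p = 0.00154). ANGPTL4, an inhibitor of lipoprotein lipase, was low, at 1.58, 1.15 and 1.93 CPM with EGFP and 2.15, 2.46 and 3.16 CPM with OmoMYC. It rose by 0.73 on the log2 scale, with a standard error of 0.22 (adjusted p = 0.0171), but was not called without EGFP replicate 2 (adjusted p = 0.0808) or OmoMYC replicate 3 (0.0893). ADM had 5 to 15 reads per library (0.172 to 0.389 CPM) and did not pass the filter.

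Of the carbonic anhydrases, which regulate pH at the cell surface, CA12 fell from 13.3 ± 0.444 to 10.9 ± 0.665 CPM (SD, n = 3 each), by 0.29 on the log2 scale (standard error 0.09, adjusted p = 0.0223). That call was lost without OmoMYC replicate 1 or OmoMYC replicate 2 (adjusted p = 0.0798 and 0.0672). CA9 had 4 to 19 reads per library. It was counted at 0.126, 0.286 and 0.344 CPM with EGFP and 0.307, 0.493 and 0.362 CPM with OmoMYC, overlapped between the groups, and was not called (adjusted p = 0.215). A difference of this size was not detectable at this depth.

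All 4 genes for mitochondrial and lipid droplet proteins had values below 0, and 2 were called lower (25.7% of all genes). BNIP3 (ENSG00000176171.7, chromosome 10 from 133781188 to 133795427), a receptor for mitophagy, was counted at 40.1, 40.7 and 38.5 CPM with EGFP and 27.6, 27.1 and 27.1 CPM with OmoMYC. FAM162A (ENSG00000114023.11, chromosome 3 from 122103029 to 122131181), a mitochondrial protein linked to cell death, was counted at 27.9, 28.7 and 26.1 CPM and at 19.9, 20.3 and 17.7 CPM. The spread within groups was small beside both differences, and the fitted falls were 0.54 (standard error 0.07, adjusted p = 0.000175) and 0.51 (0.09, 0.000775) on the log2 scale. FAM162A shares 489 exonic bases with WDR5B on the opposite strand, which was also lower (log2 fold change -0.34, adjusted p = 0.0134), and whether the counting used strand is not given in the sources used here. BNIP3 has pseudogene copies, and how reads shared with them were counted is not given either. BNIP3L, the paralog of BNIP3, and HILPDA, a lipid droplet protein that inhibits lipolysis, were not called (log2 fold changes -0.18 and -0.20, adjusted p = 0.0967 and 0.177). Without EGFP replicate 3, BNIP3L was called lower (adjusted p = 0.00453), and without EGFP replicate 1, HILPDA was (0.000367).

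The collagen and disulfide enzymes held 4 genes called lower of 6 (25.7% of all genes) and 1 called higher (27.3% of all genes) in OmoMYC cells. P4HA1 (ENSG00000122884.8, chromosome 10 from 74766975 to 74856624), the catalytic subunit of a prolyl hydroxylase of collagen, was counted at 25.2, 19.9 and 18.9 CPM with EGFP and 12.6, 12.1 and 11.2 CPM with OmoMYC. PLOD2, a lysyl hydroxylase, was counted at 38.7, 33.7 and 33.2 CPM and at 21.96, 23.4 and 19.3 CPM. LOX was counted at 209.3, 192.2 and 182.5 CPM and at 133.1, 139.1 and 129.3 CPM. None overlapped between the groups, and the log2 fold changes were -0.83, -0.71 and -0.54 (adjusted p = 0.000268, 0.000231 and 0.000169). ERO1L, an oxidase that forms disulfide bonds in the endoplasmic reticulum, fell less, from 62.3 ± 6.05 to 48.2 ± 3.41 CPM (log2 fold change -0.37, adjusted p = 0.00614). The paralogs of P4HA1 and PLOD2 did not follow them. PLOD1 was counted at 53.7, 63.7 and 68.8 CPM with EGFP and at 104.8, 101.2 and 104.8 CPM with OmoMYC, and rose (log2 fold change 0.74, standard error 0.09, adjusted p = 0.000104). P4HA2, at 11.8, 13.1 and 13.4 CPM with EGFP and 14.1, 14.5 and 15.3 CPM with OmoMYC, did not overlap but was not called (adjusted p = 0.0992).

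Among chromatin and transcription regulators, KDM4B, a histone demethylase, was counted at 86.5, 95.7 and 109.0 CPM with EGFP and 134.8, 135.4 and 151.6 CPM with OmoMYC. It rose without overlap (log2 fold change 0.54, standard error 0.09, adjusted p = 0.000825). The demethylase KDM3A (62.9 ± 2.33 and 70.1 ± 1.94 CPM, adjusted p = 0.0783) and JMJD6 (64.0 ± 4.61 and 65.8 ± 3.54 CPM, adjusted p = 0.695) were not called, although KDM3A was called higher without EGFP replicate 1 (adjusted p = 0.0291). BHLHE40, a repressor of the circadian clock and of other genes, was counted at 4.42, 5.37 and 4.13 CPM with EGFP and 2.63, 2.72 and 2.83 CPM with OmoMYC. It fell by 0.76 on the log2 scale (standard error 0.14, adjusted p = 0.00143). RORA, at 1.55 ± 0.252 and 1.77 ± 0.327 CPM, was not called (adjusted p = 0.504). ZNF395, a zinc finger protein, lay just outside the threshold, at 33.7 ± 2.47 and 29.1 ± 0.511 CPM (log2 fold change -0.21, adjusted p = 0.0501), and was called lower under 5 of 14 alternatives. For KDM3A and ZNF395 the groups did not overlap.

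DDIT4 (ENSG00000168209.4, chromosome 10 from 74033678 to 74035794), an inhibitor of mTORC1 signalling under stress, had the largest fall of the 35 genes. It was counted at 27.7, 33.3 and 32.0 CPM with EGFP and at 15.6, 15.4 and 16.2 CPM with OmoMYC, a level 1.97-fold lower. On the log2 scale it fell by 0.98 with a standard error of 0.09 (adjusted p = 1.73e-05). NDRG1, a suppressor of metastasis known to be repressed by MYC proteins, was counted at 16.1, 19.3 and 21.2 CPM and at 27.2, 28.05 and 27.8 CPM. ANKRD37, an ankyrin repeat protein, was counted at 2.08, 2.79 and 1.89 CPM and at 3.89, 3.74 and 3.58 CPM. Both rose without overlap (log2 fold changes 0.56 and 0.73, adjusted p = 0.0013 and 0.00408). ANKRD37 shares 429 exonic bases with UFSP2 on the opposite strand, which was lower (log2 fold change -0.32, adjusted p = 0.0244). WSB1, a ubiquitin ligase subunit, was not called, at 87.3 ± 8.84 and 97.0 ± 4.45 CPM (adjusted p = 0.155), but was called higher without EGFP replicate 1 (adjusted p = 0.0116).

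**Figure D3:**
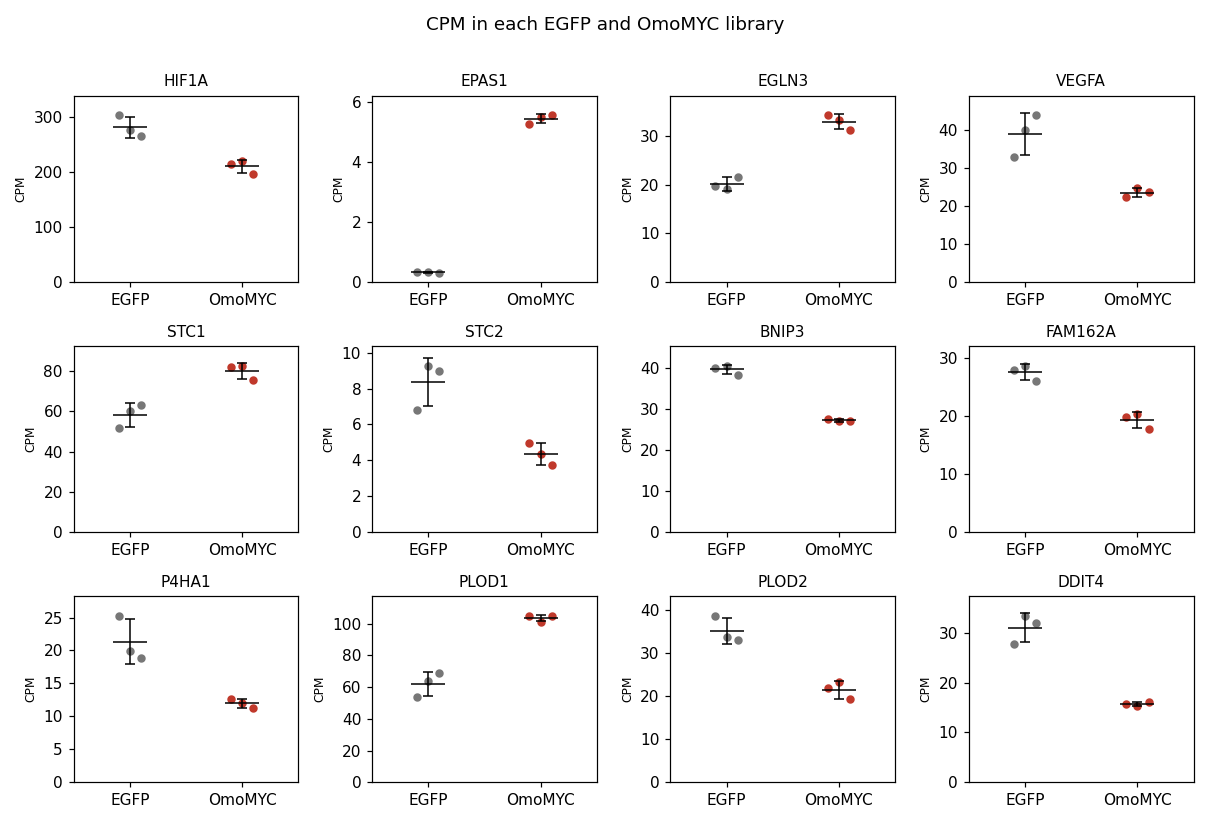
CPM in each of 3 EGFP libraries (grey) and 3 OmoMYC libraries (red) for 12 of the genes, with the mean ± SD in black and each vertical axis from 0. The groups do not overlap in any panel: EPAS1, EGLN3, STC1 and PLOD1 are higher with OmoMYC, and the other 8 genes are lower.

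The second comparison asked what dTAG47 alone does to parental cells. STC1 rose in these cells as well, and 6 more of the genes had higher values in every dTAG47 library than in any DMSO library without passing the test: VEGFA, BNIP3, FAM162A, P4HA1, KDM3A and DDIT4. The changes were small, at most 0.55 on the log2 scale among these 7. Of 33 genes tested, 1 was called higher (3.03%, against 0.117% of all 14470 genes tested) and 0 lower (against 0.0415%), by edgeR's quasi-likelihood test. The unadjusted p was below 0.05 for 1053 of all genes. DESeq2 called 6 of the 35 genes higher and 0 lower, with 44 of all genes higher and 15 lower. The groups did not overlap for 7 of the 33 genes (21.2%, against 3.34% of all genes), and all 7 were higher (1.87% of all genes were higher without overlap, and 1.47% lower). The fitted value was above 0 for 26 of the 33 genes, and for 49.2% of all genes. The median log2 fold change of the 33 genes was 0.13, and that of all genes was -0.0018. It was 0.083 without dTAG47 replicate 2 and also 0.083 without DMSO replicate 4. EPAS1 and CA9 did not pass the filter on low counts.

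These counts moved with the libraries used. Without dTAG47 replicate 2, which was the highest dTAG47 library for 23 of the 33 genes and for 34.1% of all genes, 5 genes were called higher: STC1, BNIP3, FAM162A, KDM3A and DDIT4. Of all genes, 52 were then called higher and 32 lower. In that setting 7 genes did not overlap in the higher direction and 1 in the lower, but so did 8.69% and 7.37% of all genes. Without dTAG47 replicate 1, 4 genes were called (11 of all genes higher and 2 lower), and 13 did not overlap in the higher direction (3.25% of all genes). Without dTAG47 replicate 4, 2 were called (10 of all genes higher and 3 lower). Replicates 3 and 4 alone called 13 genes higher, with 426 of all genes higher and 470 lower. Replicates 1 and 2 alone called 1, with 4 of all genes higher and 3 lower. With a factor for these pairs of replicates, 4 genes were called higher (STC1, STC2, KDM3A and KDM4B), with 374 of all genes higher and 420 lower. The median deviation of the 33 genes from their means over the DMSO libraries was 0.03, 0.22, 0.10 and 0.11 (log2 CPM) in dTAG47 replicates 1 to 4. In the DMSO libraries, which set this baseline, it lay between -0.07 and 0.05. The same measure over all genes lay between -0.0081 and 0.0085 in every library. So the shift was largest in dTAG47 replicate 2 and near 0 in dTAG47 replicate 1.

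**Figure D4:**
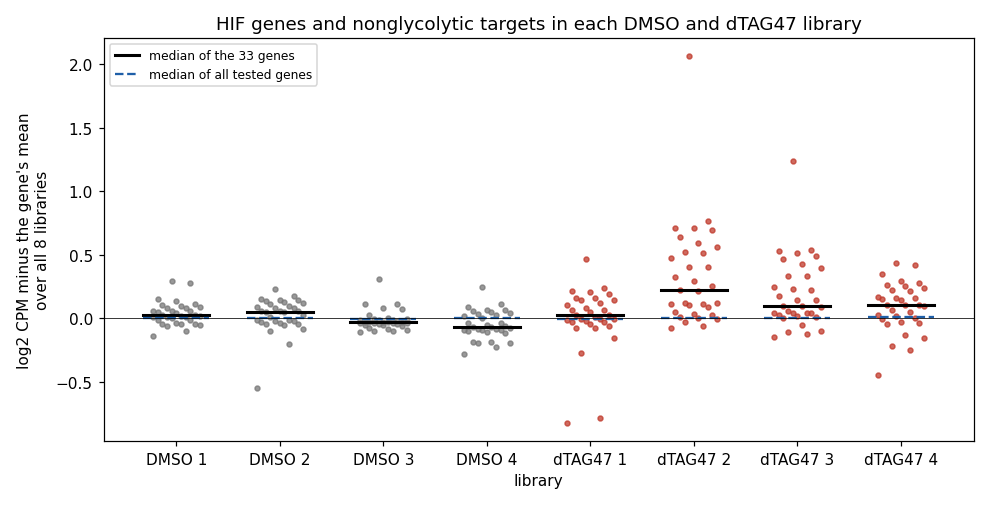
Deviation of each of the 33 tested genes from its mean over the 4 DMSO libraries (log2 CPM, points), for 4 DMSO (grey) and 4 dTAG47 (red) libraries. Black bars give the median of these genes and dashed blue bars that of all tested genes. The vertical axis label names all 8 libraries, but the means are those of the DMSO libraries. The medians of the 33 genes reach 0.22 in dTAG47 replicate 2 and 0.03 in dTAG47 replicate 1, whereas those of all genes stay near 0.

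STC1 (ENSG00000159167.7, chromosome 8 from 23699442 to 23712319) was counted at 41.3, 45.7, 39.1 and 39.3 CPM with DMSO and at 56.9, 70.1, 59.9 and 55.7 CPM with dTAG47. Every dTAG47 library lay well above every DMSO library. On the log2 scale STC1 rose by 0.55 (SE 0.07, adjusted p = 0.00333), and it was called in all 19 alternatives. Stanniocalcin 1 is a secreted glycoprotein that acts on calcium and phosphate balance. Its paralog STC2, at 25.3 ± 1.58 and 30.3 ± 3.04 CPM (SD, n = 4 each), was not called (0.26, adjusted p = 0.362).

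DDIT4 had the next lowest p. It was counted at 32.9, 39.4, 39.3 and 34.1 CPM with DMSO and at 40.5, 54.7, 52.6 and 48.5 CPM with dTAG47 (log2 fold change 0.43, standard error 0.08, adjusted p = 0.0567). FAM162A was counted at 28.2, 31.8, 28.6 and 27.2 CPM and at 33.04, 46.8, 40.0 and 36.9 CPM (0.44, standard error 0.09, adjusted p = 0.0601). In both genes the lowest dTAG47 library, replicate 1, lay just above the highest DMSO library. WDR5B, which overlaps FAM162A, had a log2 fold change of -0.07 here (adjusted p = 0.787). KDM3A was counted at 63.7, 63.7, 59.8 and 57.9 CPM and at 71.0, 87.5, 72.8 and 73.4 CPM (0.31, standard error 0.06, adjusted p = 0.0726). BNIP3 was counted at 48.7, 53.9, 47.4 and 42.1 CPM and at 56.4, 78.3, 64.4 and 58.8 CPM (0.43, standard error 0.09, adjusted p = 0.107). VEGFA was counted at 42.3, 44.4, 42.6 and 41.6 CPM and at 45.2, 66.4, 60.1 and 51.8 CPM (0.39, standard error 0.09, adjusted p = 0.145). The dTAG47 values of VEGFA spread more than its DMSO values, with SDs of 9.30 and 1.16 CPM. DESeq2 called all 5 of these genes higher (adjusted p = 0.000664 to 0.00861). P4HA1, at 24.8 ± 2.13 and 31.0 ± 4.42 CPM, was the other gene without overlap (0.32, adjusted p = 0.378).

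**Figure D5:**
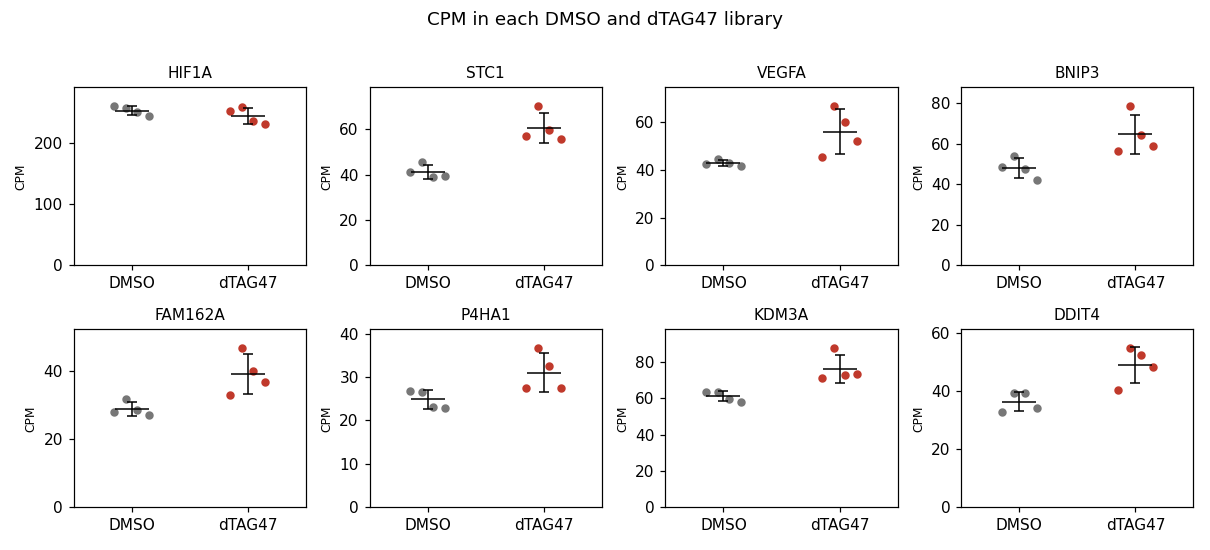
CPM in each of 4 DMSO libraries (grey) and 4 dTAG47 libraries (red), in replicate order from left to right, for 8 of the genes, with the mean ± SD in black and each vertical axis from 0. All panels but HIF1A show higher values in every dTAG47 library than in any DMSO library, and STC1 alone passed the test.

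None of the HIF subunits and oxygen sensors was called with dTAG47, and EPAS1, too low for the filter, was not tested. HIF1A was counted at 260.0, 258.0, 250.8 and 243.7 CPM with DMSO and 251.9, 259.3, 235.8 and 231.3 CPM with dTAG47, with overlap (log2 fold change -0.05, standard error 0.04, adjusted p = 0.747). ARNT was counted at 51.6, 50.6, 50.001 and 52.0 CPM and at 51.9, 52.8, 54.2 and 51.1 CPM. EPAS1 had 2 to 17 reads per library, at 0.0648, 0.255, 0.171 and 0.0970 CPM with DMSO and 0.0470, 0.316, 0.139 and 0.212 CPM with dTAG47. So none of the subunits differed beyond the spread between replicates. VHL was counted at 121.1, 125.3, 117.2 and 117.5 CPM with DMSO and at 121.1, 120.2, 121.3 and 119.9 CPM with dTAG47. EGLN1 was counted at 52.1, 53.5, 46.9 and 42.4 CPM and at 50.3, 57.9, 50.02 and 49.3 CPM, and EGLN2 at 17.1, 16.2, 16.0 and 17.8 CPM and at 16.1, 16.1, 17.9 and 18.8 CPM. All of them overlapped between the groups. EGLN3 was counted at 5.83, 4.55, 5.66 and 5.04 CPM and at 6.07, 6.09, 5.26 and 5.64 CPM, and HIF1AN at 95.0, 93.2, 91.0 and 98.2 CPM and at 93.8, 95.0, 95.5 and 104.2 CPM. The 5 sensors had log2 fold changes from 0.0042 to 0.13, with overlapping groups in all. With replicates 3 and 4 alone, EGLN1 was called higher (log2 fold change 0.15, adjusted p = 0.0266), as were 426 of all genes, with 470 lower. EGLN2 shares 2012 exonic bases with a readthrough transcript of RAB4B and EGLN2, which was counted at 0.0053 CPM with DMSO.

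The other genes overlapped between DMSO and dTAG47. BHLHE40 had the largest value among those with more than 1 CPM, at 7.97 ± 0.924 and 10.7 ± 1.92 CPM (0.42, adjusted p = 0.361). NDRG1 (18.5 ± 0.736 and 22.2 ± 3.10 CPM, 0.27, adjusted p = 0.579), BNIP3L (62.5 ± 6.37 and 70.2 ± 8.48 CPM, 0.17), KDM4B (75.4 ± 4.24 and 84.3 ± 5.03 CPM, 0.16), ZNF395 (0.16), ANKRD37 (0.14), PLOD2 (0.14), HILPDA (0.11) and P4HA2 (0.10) had values above 0. RORA (-0.18), ERO1L (-0.08), WSB1 (-0.07), LOX (-0.07), ANGPTL4 (-0.03) and CA12 (-0.01) had values below 0, and PLOD1 and JMJD6 were at 0.01. ADM ranged from 0.388 to 0.562 CPM with DMSO and from 0.235 to 2.04 CPM with dTAG47, with 10 reads in dTAG47 replicate 1 and 110 in dTAG47 replicate 2. Its log2 fold change of 1.123 had a standard error of 0.46 (adjusted p = 0.673). CA9 had 4 to 13 reads per library, at 0.1296, 0.106, 0.146 and 0.0776 CPM with DMSO and at 0.141, 0.148, 0.159 and 0.251 CPM with dTAG47.

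Across the experiments, 12 of the 32 genes tested in both had a value below 0 with OmoMYC and above 0 with dTAG47, as had 2524 of the 13424 genes tested in both. Counting both directions, signs were opposite in 15 of the 32 genes (46.9%) and in 39.0% of all 13424. Among the 12 were the 5 genes that fell with OmoMYC and did not overlap with dTAG47, namely VEGFA, BNIP3, FAM162A, P4HA1 and DDIT4. Over the 32 genes, Spearman's correlation of the log2 fold changes was -0.29, and over all 13424 genes it was 0.23. Genes are not independent replicates, the cells and gene tables differ, and no test was made of this difference. STC1 was called higher in both experiments.

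Other genes of the pathway were counted from lists. Of 26 components of the HIF system outside the 35 genes, 11 were called higher and 9 lower with OmoMYC, and the counts of these lists stand beside 27.3% of all genes called higher and 25.7% lower. ING4, which restrains HIF activity, rose from 15.7 ± 0.555 to 28.9 ± 0.302 CPM (log2 fold change 0.88, adjusted p = 1.19e-05), and the coactivator CREBBP from 182.6 ± 19.3 to 322.5 ± 19.9 CPM (0.82, adjusted p = 3.58e-05). PTGES3, a cochaperone of HSP90, fell from 562.8 ± 95.9 to 321.9 ± 19.1 CPM (-0.81, adjusted p = 0.000177), and RBX1, a subunit of the VHL ubiquitin ligase, from 14.6 ± 3.69 to 9.55 ± 1.53 CPM (-0.61, adjusted p = 0.0143). Of 48 further hypoxia-induced genes outside glycolysis, 17 were called higher and 7 lower. BHLHE41, the paralog of BHLHE40, rose from 0.257 ± 0.0522 to 2.76 ± 0.298 CPM (3.39, adjusted p = 2.25e-06), opposite to BHLHE40, and TPBG, a cell surface antigen, rose by 2.36. The adenylate kinase gene AK4 (-0.78) and the adenosine receptor gene ADORA2B (-0.57) fell. Among 38 family relatives, 16 were called higher and 4 lower: LOXL4, a relative of LOX, rose by 1.69 (7.80 ± 1.83 to 25.2 ± 0.795 CPM), while VEGFC (-0.73) and RORB (-0.66) fell. KDR of the hypoxia-induced list, described beside EPAS1, rose at a lower level, and FIGF, a growth factor related to VEGFC, fell from 28 to 42 reads with EGFP to 12 to 25 with OmoMYC (adjusted p = 0.014). The medians of these lists were 0.09, 0.08 and 0.22, beside 0.01 over all genes.

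Of 19 glycolytic targets of HIF tested with OmoMYC, 2 were called higher and 6 lower, with a median of -0.06, where 27.3% of all genes were called higher and 25.7% lower. The lactate transporter gene SLC16A3 (0.94) and PKM (0.23) rose, and PDK1 (-0.85) and LDHA (-0.58) fell. Of 14 targets of ATF4, a factor of the amino acid stress response that also induces STC2 and DDIT4, 3 were called higher and 7 lower (median -0.20). TRIB3 (5.29 ± 0.618 to 11.5 ± 0.774 CPM) and ATF5 (0.79) rose, and ASNS (-0.72) and PSAT1 (-0.71), enzymes of asparagine and serine synthesis, fell. Of 12 targets of the endoplasmic reticulum stress factors ATF6 and XBP1, 4 were called higher, among them CRELD2 (0.56) and CALR (0.29), and 2 lower, PDIA6 (-0.29) and HSP90B1 (-0.25).

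With dTAG47, the glycolytic targets were the only other pathway list with calls (the glial markers above held 1), with 8 of 22 tested called higher and 0 lower (median 0.20). These were 8 of the 17 genes called higher among all genes. Leaving out 1 library moved the number of called genes over these lists from 8 to between 1 (without DMSO replicate 1, DMSO replicate 4 or dTAG47 replicate 3) and 15 (without dTAG47 replicate 2). PFKFB3, which makes the activator of phosphofructokinase, rose from 91.7 ± 4.41 to 123.1 ± 10.6 CPM (log2 fold change 0.42, adjusted p = 0.00632), and the aldolase ALDOC from 24.3 ± 1.26 to 31.8 ± 2.65 CPM (0.39, adjusted p = 0.0294). No gene was called among 27 HIF components, 52 further hypoxia-induced genes outside glycolysis, 39 family relatives, 14 ATF4 targets and 14 endoplasmic reticulum stress targets, by edgeR's quasi-likelihood test. Their medians were 0.02, 0.08, 0.03, 0.02 and -0.0073. The fold changes of PFKFB3 and ALDOC were similar in size to those of DDIT4, FAM162A and BNIP3, which lay outside the threshold, and the difference between the lists was not tested.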

How the data were processed

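RNA was extracted with Trizol from whole cells and depleted of ribosomal RNA before sequencing. The authors used Cutadapt for trimming, STAR for alignment to hg19 and featureCounts for counting, and deposited raw counts per gene, 1 table for each experiment, with no normalization. Strand setting and the counting of reads with several alignments are not given in the sources used here. Of the columns, 0 belonged to other samples.

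Each table was fitted on its own in R 4.3.3 with edgeR 4.0.16: genes were kept by filterByExpr, scaled by TMM factors and tested with the robust quasi-likelihood test, with Benjamini-Hochberg adjustment over all genes tested and an FDR threshold of 0.05. CPM used TMM-scaled library totals, which were 28060817 to 53451641 counts before scaling, and CPM per kb used the canonical transcript of GENCODE on GRCh37 (for DDIT4 the longest). Alternatives were other scalings and filters, DESeq2 1.42.0, limma 3.58.1 (voom), a replicate block, parts of the parental libraries, and each library left out. Leaving out libraries for counts of non-overlapping groups was added after seeing the data. Standard errors of log2 fold changes were back-calculated, as the size of the log2 fold change divided by the square root of the quasi-likelihood F statistic. The fit was tested on simulated data.

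Per-library values are given for called genes with a log2 fold change of at least 0.5 in size, and for HIF subunits, oxygen sensors, VEGFA and CA9. They are also given for some of the other genes where groups did not overlap. Other lists are given by their largest 2 called rises and falls at a mean of at least 1 CPM. KDR and FIGF, below that mean, were added after their values were seen. ARNT2, HIF3A, CUL2, TCEB1 and TCEB2, which are not among those largest changes, were also added after their values were seen. Members and lists were chosen with earlier results of these data known.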

Additional observations from a re-analysis of the deposited data

Results flagged for a closer look

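In the groups of 4 libraries, 7 of 70 checks by Dixon's criterion found 1 library far from the other 3, where chance gives about 1 in 20. In dTAG47 replicate 2, EGLN1 was at 57.9 CPM, PLOD2 at 37.2 CPM and KDM3A at 87.5 CPM, each above the other dTAG47 libraries. In dTAG47 replicate 4, HIF1AN was at 104.2 CPM and CA9 at 0.251 CPM, both above the others, and CA9 had 13 reads there. ANGPTL4 was lowest in dTAG47 replicate 1, at 0.729 CPM. BHLHE40 was highest in DMSO replicate 2, at 9.35 CPM.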

How the results depend on the processing

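The number of the 35 genes called with OmoMYC stayed within 1.5 times of 10 higher and 12 lower in every alternative. Their median log2 fold change was 0.0343 with all libraries and lower whenever 1 library was left out. It then ranged from -0.0118 (without EGFP replicate 1) to 0.0204 (without OmoMYC replicate 1), and was also below 0 without EGFP replicate 2 (-0.0088). With dTAG47, where 1 of the 35 genes, 17 and 6 of all genes (higher and lower) and 8 genes of the other lists were called, the counts moved more. Scaling by library size only gave 11 higher of all genes and 5 of the other lists, and no filter on low counts gave 4 of the 35. DESeq2 gave 6 of the 35, 44 and 15 of all genes and 14 of the other lists. A factor for replicates 1 and 2 against 3 and 4 gave 4 of the 35, 374 and 420 of all genes, and 30 and 2 of the other lists. Replicates 1 and 2 alone gave 1 of the 35, 4 and 3 of all genes and 0 of the other lists, whereas replicates 3 and 4 alone gave 13, 426 and 470, and 29 and 2. Leaving out 1 library gave 1 to 5 of the 35, 4 to 52 and 2 to 32 of all genes, and 1 to 15 of the other lists, with 7 to 13 of the 35 not overlapping in the higher direction and 0 to 1 in the lower. The cause was not tested.

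The replicate numbers were shared between groups. With the numbers as a replicate block, the dTAG47 comparison gave 13 of the 35 genes higher, 306 and 362 of all genes, and 29 and 1 of the other lists. Same-numbered libraries correlated at 0.07, -0.07 and 0.29 in the OmoMYC experiment and at 0.01, 0.11, 0.10 and 0.16 in the dTAG47 experiment, where 1 pair of the dTAG47 experiment and 2 of the OmoMYC experiment were near 0 or below, so the numbers were not taken to pair the libraries. In neither experiment did every library correlate best with its own number. Genes with under 20 reads per library, such as CA9, ADM with OmoMYC and EPAS1 without it, are limited by depth.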
